A study of Mus musculus with 6 samples.

Results

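The genes described here had a brighter array signal in ALDH-negative than in ALDH-positive cells of the mouse ovarian surface. They were chosen from the deposited log2 values by a fixed rule on replicates 1 and 3. A probe set, the group of short probes that reads 1 transcript on the array, had to read at least 5 in the ALDH-negative cells of both replicates. It also had to read lower by at least 1, which is a 2-fold difference, in the ALDH-positive cells of both. Of 34945 probe sets that carry 1 gene symbol, 123 met the rule (0.352%), and they represent 112 of 18193 genes. Among the 7885 probe sets that read at least 5 in the ALDH-negative cells of replicates 1 and 3, called bright probe sets below, the members made up 1.56%. With the rule turned, 193 of 7756 probe sets that read at least 5 in ALDH-positive cells were brighter there by at least 1 in both replicates (2.49%), and no gene appeared in both sets.

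The cells were primary ovarian surface epithelium of virgin FVB/N mice of 8 weeks, released from whole ovaries by a digestion of 55 minutes and cultured for 24 hours. They were sorted by ALDEFLUOR, a stain that turns fluorescent in cells with aldehyde dehydrogenase activity, against unstained cells and cells given the inhibitor diethylaminobenzaldehyde. By the series design, each of 3 pools of 10 mice gave 1 array of the ALDH-positive and 1 of the ALDH-negative fraction, 6 Affymetrix Mouse Genome 430 2.0 arrays in all. No label names the pool of an array, so each difference within a replicate assumes that arrays of the same number are a pair. A fraction from pooled mice is an average over animals and over all cells in the gate.

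Aldehyde dehydrogenases oxidise aldehydes, among them retinaldehyde, and high activity is used to sort progenitor-like cells from many tissues. ALDH-negative cells are defined only by lacking that signal, so the gate can hold several cell types of the ovary. The ovarian surface lies over stroma and over luteal and interstitial cells that turn cholesterol into steroids, store lipid and respond to cyclic AMP and insulin.

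The ALDH-negative array of replicate 2 stood apart. Across probe sets it correlated with the other arrays at 0.543 to 0.664, while the other 5 correlated with each other at 0.835 to 0.975. The 3' control of beta-actin read 5.03 on it and 9.56 to 11.04 elsewhere. Both arrays of replicate 3 had a weak 5' signal of Gapdh, with a 3' minus 5' difference of 3.59 on the ALDH-negative array and 5.30 on its partner, against 0.90 and 1.0005 in replicate 1. Markers of the labelled cell type differed in the ALDH-negative fraction, where 4 of 20 measured surface epithelium genes, Krt8, Krt18, Dsp and Ezr, read at least 5 in replicates 1 and 3. Krt8 read 7.17 and 8.10 there, against 9.14 and 9.45 in ALDH-positive cells. Krt7 read 3.56, 4.33 and 4.78 on the ALDH-negative arrays of replicates 1 to 3, against 8.91, 8.94 and 7.11 on the ALDH-positive arrays, and the mesothelial protein gene Msln read 3.61, 5.14 and 3.60 against 8.50, 8.34 and 7.08.

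The members were of moderate brightness and differed more in replicate 3 than in replicate 1. Their median level in ALDH-negative cells was 6.21 in replicate 1 and 5.95 in replicate 3, and 4.77 and 4.28 in ALDH-positive cells. The median difference, ALDH-positive minus ALDH-negative, was -1.25 in replicate 1 and -1.84 in replicate 3. The same medians were -0.19 and -0.01 over all bright probe sets. Differences ran from -2.91 to -1.0004 in replicate 1 and from -5.72 to -1.02 in replicate 3. In replicate 3 the difference was the larger for 95 of 123 members (77.2%), against 42.7% of bright and 46.6% of all probe sets. Of the members, 24 read below 3 in ALDH-positive cells of replicate 3, which 1.12% of bright and 43.4% of all probe sets did. This array also had the weakest 5' Gapdh signal, and the part of RNA quality in these values was not tested. These values chose the members, so they carry no test.

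**Figure D1:**
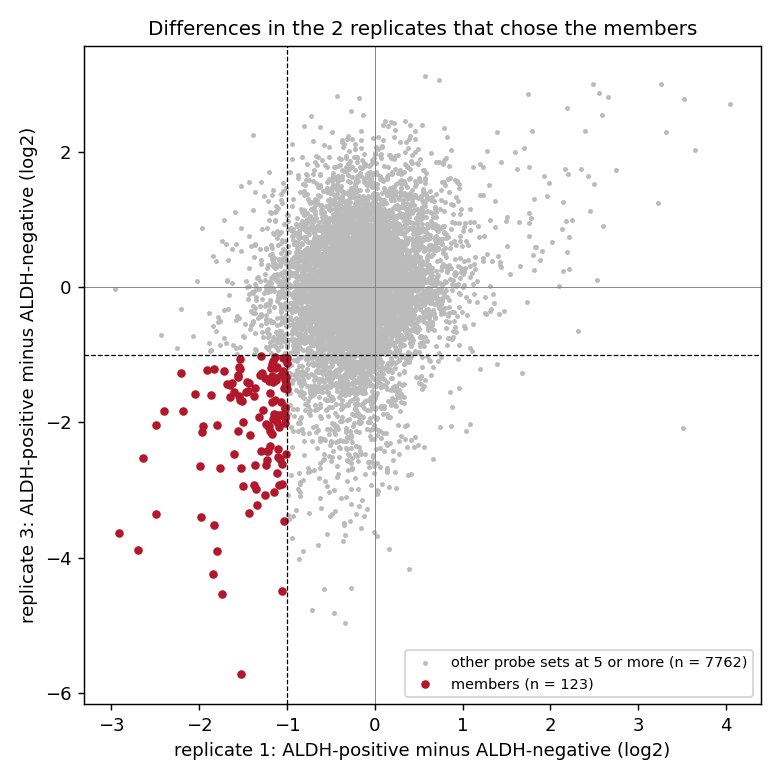
Difference between ALDH-positive and ALDH-negative cells (log2) in replicate 1 (horizontal) and replicate 3 (vertical) for the 7885 bright probe sets, with the 123 members in red and the threshold of -1 as dashed lines. The members fill the lower left corner, and their spread is wider in replicate 3, down to -5.72, than in replicate 1, down to -2.91.

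Across all probe sets limma called no difference between the fractions. With replicate as a block, 0 of 27022 tested probe sets had an adjusted p under 0.05 in the direction of the members (0.0%), and 109 had an unadjusted p under 0.05 in that direction (0.403%). The lowest adjusted p of any probe set was 0.765. Without replicate 1 the fit called 7 probe sets, 3 of them lower in ALDH-positive cells. In the fit to all 3 replicates, the 123 members all passed the filter on low values. None had an adjusted p under 0.05, and 16 had an unadjusted p under 0.05 and were lower in ALDH-positive cells. Since the rule used this contrast, nothing is read from these counts. The fit held replicate 2, and over the 3 replicates the mean difference was below 0 for 103 members.

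The members at the edges of the rule differed little from probe sets that missed it. Zfp507 (-1.0026 and -1.504 in replicates 1 and 3), Sgms1 (-1.0006 and -1.04) and Zbtb11os1 (-1.0004 and -1.12) were just inside the threshold on the difference. Sulf2 (-0.9993 and -1.26), Acp6 (-0.9989 and -1.11) and Ubfd1 (-0.9977 and -1.39) were just outside it. At the threshold on level, the lower of both ALDH-negative readings was 5.02 for Dnajb1, 5.02 for Utp6 and 5.03 for Fzd8, all inside. It was 4.98 for Plekhg4, 4.99 for Mblac2 and 4.99 for a probe set of Acss2, all outside. In all, 389 probe sets of any level were lower by at least 1 in both replicates, and 266 of them read under 5 in an ALDH-negative array of replicate 1 or 3.

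Of the function groups, all put together after the members were known and described with no share over other genes, insulin, nuclear receptor and hormone signalling holds 8 genes with 12 member probe sets and a median difference of -1.91 over replicates 1 and 3. Rora encodes a nuclear receptor of the ROR family that regulates lipid metabolism and circadian genes, and had 3 member probe sets. The member of largest difference read 6.21, 2.78 and 6.002 on the ALDH-negative arrays of replicates 1 to 3, against 4.41, 3.48 and 2.11 on the ALDH-positive arrays. The others read 7.30, 4.49 and 6.46 against 5.34, 6.38 and 4.32, and 7.23, 2.83 and 7.78 against 5.27, 6.86 and 5.72. In each of the 3, the ALDH-negative readings of replicates 1 and 3 lay above all ALDH-positive readings of that probe set, while the ALDH-negative array of replicate 2 lay within or below the ALDH-positive range. Of the 9 probe sets of Rora, 8 read lower in ALDH-positive cells in both replicates, 3 of them by the rule, and none higher in both. Here and below, such counts for a gene include its own members, which are lower by the rule.

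Greb1, an estrogen-responsive gene, was the brightest member. Its member probe sets read 8.41, 3.57 and 7.99 against 6.99, 6.80 and 6.57, and 8.24, 3.99 and 6.96 against 6.99, 7.24 and 5.62. The first separated replicates 1 and 3 of the ALDH-negative fraction from all ALDH-positive arrays by more than 1, and the second overlapped. All 4 probe sets of Greb1 read at least 5 and were lower in both replicates, with mean differences of -1.15 in replicate 1 and -1.53 in replicate 3. Ncoa1, a coactivator of nuclear receptors, had 2 member probe sets, at 5.99, 3.71 and 6.67 against 4.72, 5.25 and 4.85, and at 5.46, 4.98 and 6.21 against 4.42, 4.57 and 5.17. Its other probe set was dim, at 1.52 and 1.91 in ALDH-negative cells of replicates 1 and 3, and differed by -0.20 and -0.17.

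Several members act in insulin or phosphoinositide signalling, and were named after their values were seen. Insr, the insulin receptor, read 5.64, 4.15 and 5.73 in ALDH-negative cells against 4.62, 3.70 and 3.93. Pik3r1, the regulatory subunit of phosphoinositide 3-kinase, read 7.20, 4.76 and 5.62 against 6.05, 6.33 and 2.59. Foxo1, a transcription factor that insulin signalling keeps out of the nucleus, read 6.15, 3.50 and 5.32 against 5.08, 4.26 and 2.78. At these member probe sets of Insr and Foxo1 the ALDH-negative readings of replicates 1 and 3 lay above all ALDH-positive readings, and for Pik3r1 they overlapped. The other bright probe set of Insr differed by -0.0063 and -1.24. Its ALDH-positive reading of 6.02 in replicate 2 lay above all its ALDH-negative readings. Foxo1 had 3 probe sets at 5 or more, and each was lower in both replicates. Of the 3 such probe sets of Pik3r1, 2 were lower in both and the other differed by -2.03 and 0.09. Igfbp4, a secreted protein that binds insulin-like growth factors, read 8.37, 5.96 and 7.02 against 6.76, 6.64 and 4.56, and its 4 probe sets at 5 or more were each lower in both replicates. Pik3c2a, a kinase of phosphoinositides in endocytosis, was lower by 1.38 and 2.92 in replicates 1 and 3, and higher by 3.94 in replicate 2. Its other probe sets, under 5 in replicate 3, differed by -0.66 and 0.45, and by -0.41 and 1.08, in replicates 1 and 3.

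**Figure D2:**
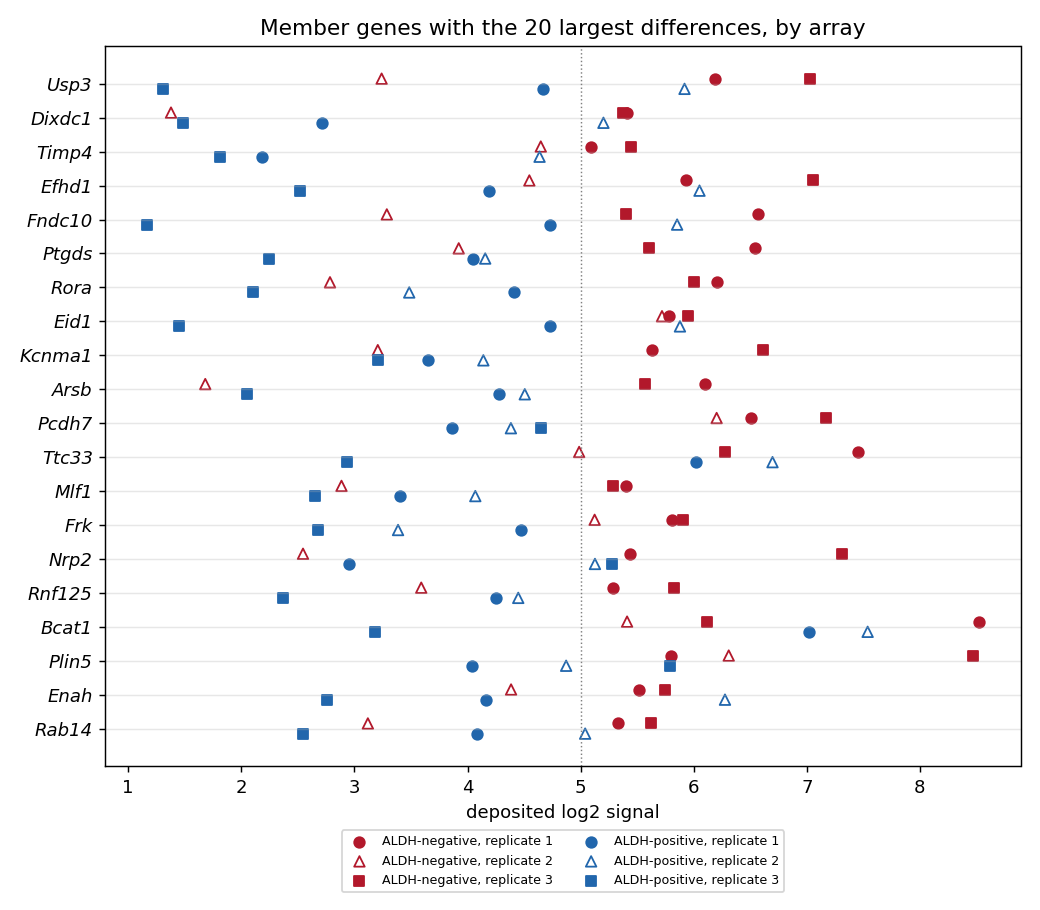
Deposited log2 signal on each of the 6 arrays for the 20 member genes of largest mean difference in replicates 1 and 3, 1 probe set a gene. Red marks are ALDH-negative and blue marks ALDH-positive arrays, circles, triangles and squares are replicates 1, 2 and 3, and the dotted line is the level of 5. Filled red marks lie to the right of the filled blue marks of the same replicate for every gene, as the rule requires, while the open red triangles of replicate 2 lie to the left of the open blue ones for most genes.

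Members of cyclic AMP, calcium and other intracellular signalling numbered 13 genes with 14 probe sets, at a median difference of -1.64. Adcy9, an adenylyl cyclase that makes cyclic AMP, read 6.77, 5.36 and 5.81 in ALDH-negative cells against 5.12, 5.73 and 4.19. Prkar2b, a regulatory subunit of protein kinase A, read 7.004, 3.50 and 5.84 against 5.87, 6.65 and 4.17. Prkar1b, another regulatory subunit, read 5.39, 6.39 and 6.004 against 4.27, 3.16 and 4.66. All ALDH-negative readings of Prkar1b lay above all ALDH-positive ones, and those of Adcy9 and Prkar2b overlapped. Both other probe sets of Prkar2b, under 5 in replicate 3, were lower in replicate 1, by 1.91 and 1.70, and higher in replicate 3, by 3.16 and 2.19. Of the 19 measured genes of the list for cyclic AMP and protein kinase A, Adcy9 and Prkar2b were members, and the median of that list was 0.02 in replicate 1 and -0.05 in replicate 3.

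Itpr2, a receptor channel that releases calcium from the endoplasmic reticulum, read 5.31, 4.16 and 5.73 against 4.10, 4.12 and 3.67. Its fractions did not overlap, although replicate 2 separated them by 0.04 only. Efhd1, a calcium-binding protein of mitochondria, was lower by 1.74 and 4.54 in replicates 1 and 3. Dixdc1, a protein of the Wnt pathway, read 5.41 and 5.37 in ALDH-negative cells against 2.71 and 1.49 of these replicates, and 1.38 against 5.20 in replicate 2. Frk, a Src-related tyrosine kinase, read 5.81, 5.12 and 5.90 against 4.47, 3.39 and 2.68, with no overlap. Of its 4 probe sets 2, the member among them, were lower in both replicates. The rest, under 5 in replicates 1 and 3, differed by -1.13 and 0.76, and by -0.82 and 0.60. Mark1, a kinase that acts on microtubule-associated proteins, had 2 member probe sets, with differences of -2.40 and -1.84, and of -1.91 and -1.23. Cdkn1b, an inhibitor of cyclin-dependent kinases, was lower by 1.52 and 2.67. It was the member among 24 measured genes of the cell cycle list, whose medians were 0.42 and 0.69 in replicates 1 and 3.

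Lipid and sterol metabolism contributed 16 genes with 17 probe sets, at a median difference of -1.60. Plin5, a coat protein of lipid droplets in cells that burn fat, read 5.79, 6.31 and 8.47 in ALDH-negative cells against 4.04, 4.87 and 5.79. The fractions of Plin5 touched, since the lowest ALDH-negative and the highest ALDH-positive readings were equal to 2 decimals. Its other probe set was lower in both replicates as well. Hao2, a peroxisomal oxidase of hydroxy acids, read 6.15, 5.46 and 6.54 against 4.28, 4.16 and 4.95, without overlap, and has 1 probe set. Echdc3, of the enoyl-CoA hydratase family, read 5.73, 4.86 and 6.89 against 4.17, 4.22 and 4.76, also without overlap.

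Sterol and acetate enzymes were members too. Mvd, which decarboxylates mevalonate diphosphate in cholesterol synthesis, read 7.17, 5.56 and 7.06 against 5.63, 6.47 and 5.39. The other probe set of Mvd, under 5 in replicate 3, differed by -1.49 and 0.87 in replicates 1 and 3. Tm7sf2, a sterol reductase of cholesterol synthesis, read 5.399, 2.53 and 5.41 against 3.86, 5.58 and 4.35. Acss2, which makes acetyl-CoA from acetate, read 7.21, 2.73 and 6.72 against 5.53, 6.59 and 5.28, and all 3 of its probe sets were lower in both replicates. Vldlr, a lipoprotein receptor, was lower by 1.23 and 2.63, and 4 of its 6 probe sets were lower in both replicates. Of its 4 bright probe sets 2 were lower in both, the member among them, and the brightest differed by -1.03 and 0.94. Mvd and Tm7sf2 were not on the list for cholesterol, of which 14 of 20 measured genes were bright and none a member. That list had medians of -0.63 and -0.02 in replicates 1 and 3. Ptgds, which makes prostaglandin D2, had one of the larger differences, at 6.54, 3.92 and 5.60 against 4.05, 4.16 and 2.25. Its other probe set, under 5 in replicates 1 and 3, differed by -2.07 and 0.51.

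Other enzymes and transporters made up 14 members of 14 probe sets, at a median of -1.44. Bhmt, which remethylates homocysteine with betaine, read 5.81, 5.99 and 8.02 against 3.63, 5.73 and 6.18. It was lower by 2.19 and 1.83 in replicates 1 and 3 and by 0.25 in replicate 2, and its fractions overlapped. Bcat1, a cytosolic aminotransferase of branched-chain amino acids, was lower by 1.499 and 2.94, but its other bright probe sets differed by -0.90 and 0.15, and by -0.79 and 0.36. Kcnma1, a potassium channel opened by calcium and voltage, read 5.63, 3.21 and 6.61 against 3.65, 4.14 and 3.21. All 5 of its probe sets were lower in both replicates, but only 1 of them, the member, was bright. Arsb, a lysosomal sulfatase, was lower by 1.83 and 3.52, and its 3 probe sets were too in both replicates. Aifm2, an oxidoreductase that reduces coenzyme Q, was among the 6 brightest members, at 7.17 and 8.32 against 5.61 and 7.03 in replicates 1 and 3.

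The promoters of the member genes were searched for 3 motifs, since NR5A1, the nuclear receptor of steroid-producing cells, binds CAAGGTCA and factors of the cyclic AMP pathway bind TGACGTCA. RefSeq promoters of the build GRCm38.p6, from 250 bases before to 50 bases after a start, were at hand for 95 of the 112 genes. The first motif, on either strand and at any listed start, was in the promoters of 2 of these 95 genes (2.11%), Bhmt and Sgms1, and of 1.76% of 27025 genes. TGACGTCA was in that of 1 gene (1.05%), Mlf1, and of 2.03% of all genes. The shorter AGGTCA, which lies within the first motif, was in 14 of 95 (14.7%) and in 18.1% of all genes. The 3 matches of the longer motifs are printed to show where the letters lie, with the motif in capitals, each as 100 bases taken from the 250 upstream of the start, 5′ to 3′ on the strand of the gene. The stretches are chr13:93637779-93637878 (minus strand) for Bhmt, chr19:32349317-32349416 (minus strand) for Sgms1 and chr3:67373997-67374096 (plus strand) for Mlf1.
Bhmt: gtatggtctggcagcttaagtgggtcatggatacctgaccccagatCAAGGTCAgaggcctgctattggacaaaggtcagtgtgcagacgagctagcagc
Sgms1: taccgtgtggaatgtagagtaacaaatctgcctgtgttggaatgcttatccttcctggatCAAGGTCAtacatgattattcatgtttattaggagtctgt
Mlf1: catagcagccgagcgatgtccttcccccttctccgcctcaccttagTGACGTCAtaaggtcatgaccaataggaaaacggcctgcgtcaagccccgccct
Sgms1, which makes sphingomyelin, was one of the 6 brightest members (8.39, 4.09 and 7.38 against 7.39, 6.99 and 6.34). Its other bright probe set differed by -1.15 and 0.18 in replicates 1 and 3. Mlf1 was lower by 1.99 and 2.64 in replicates 1 and 3, and higher by 1.18 in replicate 2. A match is a description of these letters only.

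Regulators of transcription, chromatin and RNA numbered 18 genes with 20 probe sets, at a median difference of -1.56. Kdm7a, a histone demethylase, read 6.35, 7.98 and 5.35 in ALDH-negative cells against 4.86, 5.16 and 3.36, without overlap. Of its 5 probe sets 3, the member among them, were lower in both replicates. Of the dimmer ones, 1 was higher in both, by 0.91 and 0.20. Foxp2, a forkhead factor, had 2 member probe sets, at 6.33, 4.88 and 5.43 against 4.81, 3.99 and 3.76, and at 5.44, 2.998 and 6.501 against 3.80, 3.90 and 5.05. The first of them showed no overlap. Id2, which blocks DNA binding by helix-loop-helix factors, was lower by 1.60 and 1.55, and Tcf4, a helix-loop-helix factor, by 1.16 and 1.09. Another bright probe set of Id2 differed by -0.99 and 0.61, and 2 of 3 bright ones of Tcf4, the member among them, were lower in both replicates. Nfx1, a zinc finger protein, had 2 member probe sets, while its brightest probe set differed by -0.23 and 0.28. Eid1, an inhibitor of histone acetyltransferases, read 5.78, 5.72 and 5.95 against 4.73, 5.88 and 1.45 at the member probe set. A brighter probe set of Eid1 was higher in ALDH-positive cells in both replicates, by 0.12 and 0.10.

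At the cell surface and in the matrix, 8 genes with 9 probe sets had a median difference of -1.63. Pcdh7, a protocadherin of cell adhesion, read 6.50, 6.20 and 7.17 in ALDH-negative cells against 3.87, 4.38 and 4.65. These fractions lay 1.55 apart at the nearest, and Pcdh7 was lower by 2.64, 1.82 and 2.52 in replicates 1 to 3. Another probe set of Pcdh7, under 5 in replicate 3, differed by -0.93 and 4.31. Dsp, which encodes the desmosomal plaque protein desmoplakin, read 6.44, 8.57 and 8.47 against 5.07, 5.48 and 6.98. Its fractions overlapped, since replicate 1 of the ALDH-negative cells was dimmer than replicate 3 of the ALDH-positive ones. Dsp was the member among the 20 measured genes of the surface epithelium list. The medians of that list were 3.93, 3.62 and 2.78 in replicates 1 to 3. A second bright probe set of Dsp differed by -1.68 and 0.11.

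Timp4, an inhibitor of matrix metalloproteinases, read 5.09, 4.65 and 5.45 against 2.18, 4.64 and 1.81. It had the largest difference of all members in replicate 1, and the readings of replicate 2 were 0.01 apart. Itga9, an integrin subunit, had 2 member probe sets, at 5.79, 3.17 and 5.37 against 4.42, 5.49 and 2.75, and at 6.22, 5.52 and 6.41 against 4.98, 5.59 and 4.39. Nrp2, a coreceptor for semaphorins and vascular growth factors, was lower by 2.49 and 2.03, and all 4 of its probe sets were lower in both replicates. Ptprd, a receptor tyrosine phosphatase, was lower by 1.13 and 1.04 at its member probe set. A brighter one was higher in ALDH-positive cells by 0.0041 and 0.42.

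Cytoskeletal, motor and vesicle genes numbered 16 with 18 probe sets (median -1.46). Enah, a protein that extends actin filaments, had 2 member probe sets, with differences of -1.35 and -2.99, and of -1.05 and -1.24. Of its 5 bright probe sets 4 were lower in both replicates, 2 of them the members. Kif1b, a kinesin motor, had 2 members as well, and 4 of its 5 bright probe sets, these 2 included, were lower in both. Spag1, needed to assemble dynein arms of cilia, read 6.42, 6.52 and 7.36 against 4.22, 4.75 and 6.09, without overlap. Dpysl4, of a family that binds tubulin, was among the brightest members, at 7.50, 3.38 and 8.02 against 6.39, 7.24 and 6.13. Rab14, a small GTPase of endosomes, was lower by 1.25 and 3.08 at the member, while its brightest probe set differed by -0.14 and 0.21.

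Genes of ubiquitin, protein folding and DNA repair gave 8 members with a median of -1.70, and 11 members were left as other or little described (median -1.51). Usp3, a deubiquitinase of histones, had the largest mean difference of all members, -3.62, at 6.19, 3.24 and 7.03 against 4.67, 5.92 and 1.31. That mean rests on replicate 3, where the difference was -5.72 against -1.52 in replicate 1. Its other bright probe sets were lower by 1.57 and 0.44, and by 1.20 and 0.06. Rnf125, a ubiquitin ligase, was lower by 1.03 and 3.46. Dnajb1, a heat shock protein, was the member among 25 measured immediate early and heat shock genes, lower by 1.02 and 1.05, and its brighter probe set differed by 0.07 in replicate 1 and, to 2 decimals, not in replicate 3. Of the little described genes, Fndc10 differed by -1.84 and -4.24, Ttc33 by -1.43 and -3.34 and Zswim6 by -1.31 and -1.30. Zswim6 read 5.13, 5.45 and 5.74 against 3.83, 3.31 and 4.44 and did not overlap. Atp10a, a lipid flippase of the lipid group, had 2 member probe sets, and neither overlapped between fractions.

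The lists of ovarian and metabolic genes held few members. Of 367 measured genes on 19 lists, 148 had a bright probe set and 6 were members, namely Plin5, Cdkn1b, Adcy9, Dsp, Prkar2b and Dnajb1 (4.05% of the 148, against 2.09% of all 5365 genes with a bright probe set). None of the 24 measured steroidogenic genes was a member, although 13 were bright. In such counts of bright genes by list, each gene stands for its probe set of highest mean over the 6 arrays. Of the 24, 11 read lower in ALDH-positive cells in both replicates (45.8%, against 24.0% of all genes and 36.7% of bright probe sets). A bright probe set was present for 5365 of all 18193 genes, so the 24.0% is not matched for level. Nr5a1, a nuclear receptor of steroid-producing cells, differed by -1.05 and -1.35 and missed the rule by its level of 4.90 in replicate 3. Its relative Nr5a2 differed by -0.98 and -1.07. Star, which brings cholesterol into mitochondria, missed it in replicate 3, at 8.997, 3.82 and 9.77 against 7.80, 7.81 and 8.91, with differences of -1.20 and -0.86. The medians of the steroidogenic list were -0.55 and -0.13 in replicates 1 and 3. The lists of antioxidant (20 bright genes), respiratory chain (17), matrix (11) and interferon genes (6) had no member. The luteal receptor, granulosa and stromal lists had none of 3 bright genes each and the leukocyte list none of 1. The bright genes of the luteal receptor list were Timp1, Sfrp4 and Parm1, which are not receptors. The endothelial, oocyte, erythroid and oviduct lists had no bright gene by that count, and no member.

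Markers of surface epithelium and of stroma summed higher in the ALDH-positive fraction, while the sums of leukocyte and endothelial markers overlapped between the fractions. The summed signal of the steroidogenic list, on the linear scale, was 11587 and 6960 on the ALDH-negative arrays of replicates 1 and 3 against 7903 and 5849 on their partners, and 511 against 7709 in replicate 2. That of the 20 surface epithelium genes was 598 to 944 in the 3 ALDH-negative and 3527 to 5461 in the 3 ALDH-positive arrays, and that of the 18 stroma and smooth muscle genes was 390 to 657 and 2836 to 3505. Leukocyte markers summed to 152 to 534 and 185 to 485, and endothelial markers to 172 to 331 and 176 to 255. Such sums are carried mostly by the brightest genes of a list. Median differences in replicates 1 to 3 were 1.42, 1.08 and 0.33 for the stroma list. They were 0.17, -1.53 and -0.10 for leukocyte and -0.21, -1.16 and -0.04 for endothelial markers. In replicates 2 and 3 some stroma genes were lower in ALDH-positive cells. No listed marker read 0 on any array. Their part in the members' differences was not tested, and fewer cells of a type and less RNA per cell cannot be told apart in these bulk samples.

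Replicate 2 was not used to choose the members, and there most of them did not repeat the direction. Of 123 members, 30 read lower in ALDH-positive cells in replicate 2 (24.4%), against 54.5% of all probe sets and 14.7% of bright ones. The count was 19 in median-centred and 44 in quantile normalized arrays. By at least 1, 9 members were lower (7.32%), against 29.8% and 5.03%. The median difference of the members was 1.18, between -0.21 for all and 2.02 for bright probe sets. Bright probe sets as a whole were thus higher in ALDH-positive cells here, where the ALDH-negative array that stood apart was the partner, and the members less so. Of 26 members that read at least 5 on that array, 14 were lower in ALDH-positive cells (53.8%), against 31.0% of the bright probe sets and 55.3% of all probe sets with such a reading. Of those 26, 9 were lower by at least 1, against 11.2% and 36.6%. The 26 were kept for a high reading on the array that enters the difference, so these shares depend on that choice. With 1 pair of arrays there is no test.

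The 9 members that met the full threshold in replicate 2 were Pcdh7, Frk, Plin5, Kdm7a, Spag1, Hao2, Dsp, Zswim6 and Prkar1b. Their replicate 2 differences ran from -3.22 for Prkar1b and -3.09 for Dsp to -1.30 for Hao2. All 9 read at least 5 on the ALDH-negative array of replicate 2, as the threshold on level also asks. Over the 6 arrays, the lowest ALDH-negative reading lay above the highest ALDH-positive one for 23 members (18.7%), against 4.19% of all and 1.79% of bright probe sets. With replicate 2 of the ALDH-negative cells left out it did for 86 (69.9%), against 7.72% and 9.78%. That array read below both other ALDH-negative arrays for 112 members (91.1%), against 35.0% of all and 81.6% of bright probe sets. Replicates 1 and 3 of both fractions entered the rule. The separation of the fractions is thus partly set by it, and nothing is read from any of these shares of members.

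The ALDH-positive array of replicate 2 can be set against the ALDH-negative arrays of replicates 1 and 3. On it 90 members (73.2%) read below both, against 31.5% of bright and 30.8% of all probe sets. By at least 1, 32 (26.0%) were below both, against 3.84% and 2.5%. The median of ALDH-positive replicate 2 minus the mean of both ALDH-negative arrays was -0.73 over the members and 0.00 over bright probe sets. The ALDH-negative values in this comparison chose the members for being high, so it is a description and no support. Gm2a, a lysosomal activator protein of ganglioside breakdown, shows the contrast, with 8.31 on the ALDH-positive array of replicate 2, 8.70 and 6.28 on the ALDH-negative arrays of replicates 1 and 3, and 2.09 on that of replicate 2. A brighter probe set of Gm2a differed between the fractions by -0.66 and 0.21 in replicates 1 and 3.

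**Figure D3:**
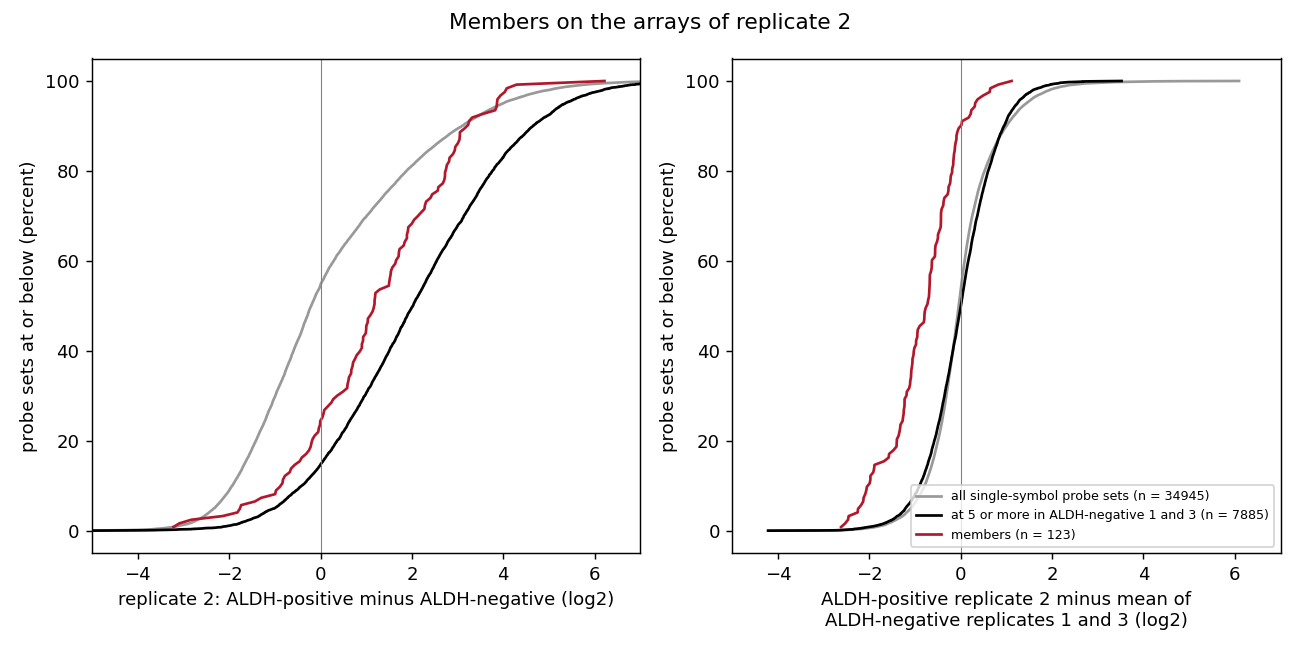
Cumulative share of probe sets (percent) by the difference between the fractions in replicate 2 (left, log2) and by ALDH-positive replicate 2 minus the mean of ALDH-negative replicates 1 and 3 (right, log2), for the 123 members in red, the 7885 bright probe sets in black and all 34945 in grey. In the left panel the members lie between both other curves over most of the range, with a median of 1.18, and in the right panel they lie to the left of both with a median of -0.73.

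Other probe sets of the member genes mostly leaned the same way, with smaller differences. Of the 112 genes, 17 have 1 probe set with a single symbol and 95 have others. Beside the member of largest difference of each gene, 92 other probe sets of 57 genes were bright, and 11 of these are members themselves, lower by the rule. Of the 81 that are not members, 52 read lower in ALDH-positive cells in both replicates (64.2%), against 36.7% of all bright probe sets, 27 were mixed and 2 were higher in both. Those 2 belong to Eid1 and Ptprd. The median difference of the 81 was -0.53, against -0.09 over all bright probe sets. They share the arrays and the contrast of the rule, so they carry no test. Among the 172 dimmer ones, 86 were lower in both replicates (50.0%), against 23.9% of all probe sets of that level, and 5 were higher in both.

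**Figure D4:**
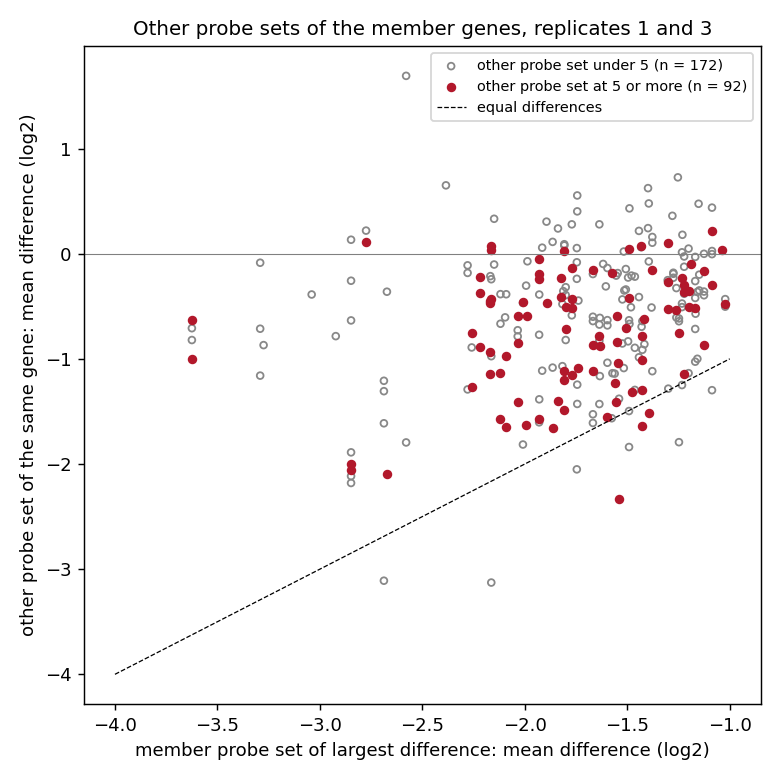
Mean difference over replicates 1 and 3 (log2) of each other probe set of a member gene (vertical) against that of the gene's member of largest difference (horizontal), with bright probe sets filled and the others open. Most points lie below 0 and above the dashed line of equal differences, with a median of -0.63 for the 92 bright ones, of which 11 are members.

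Of 52 genes with another bright probe set that is not a member, 29 had every such probe set lower in both replicates, among them Greb1, Foxo1, Usp3, Igfbp4, Nrp2, Acss2, Adcy9, Mark1 and Plin5. For Rora, Atp10a, Itga9, Foxp2 and Ncoa1 the other bright probe sets are all members, so their agreement was set by the rule. Of 75 genes with at least 3 probe sets of any level, 19 had all of them lower in both, including Kcnma1 with 5 and Greb1 and Nrp2 with 4. Each gene's own members, lower by the rule, are part of that count. When all bright probe sets of a gene, its members included, were averaged, 20 of the 57 genes with more than 1 were lower by at least 1 in both replicates. No share over other genes is given beside these counts of genes, so nothing is read from them. The other 55 genes have 1 bright probe set, the member itself. Single-symbol probe sets whose names end in _s_at, which can read several transcripts, made up 16 members (13.01%), against 5.24% of all.

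**Figure D5:**
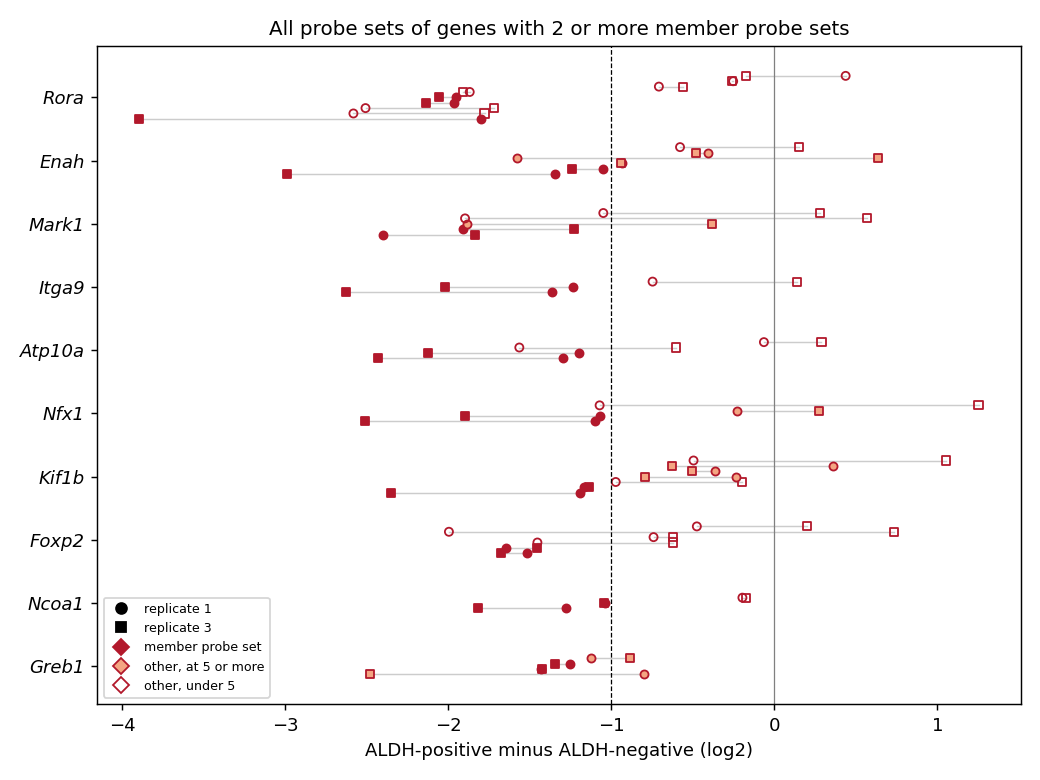
Differences between the fractions (log2) for every probe set of the 10 genes with at least 2 member probe sets, with replicate 1 as circles and replicate 3 as squares joined by a line. Filled red marks are members, light marks other bright probe sets and open marks dimmer ones, and the dashed line is the threshold of -1. Greb1 and Ncoa1 have no mark above 0, while the other 8 genes each have a mark above 0, none of them a member.

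The member genes were longer in the genome than other genes, a property that the rule did not use. By the RefSeq annotation of GRCm38.p6, 46 of 123 member probe sets (37.4%) belong to genes that span at least 100 kb, against 13.3% of bright and 16.6% of all probe sets. The median span was 55.1 kb for the members and 27.2 kb for bright probe sets. These values count a gene with several member probe sets more than once. Counted by gene, 36 of 112 member genes (32.1%) spanned at least 100 kb, against 12.2% of genes with a bright probe set and 12.4% of all genes. The medians by gene were 45.6, 25.8 and 20.3 kb. Among the long genes were Ptprd, Rora, Kcnma1, Foxp2, Pcdh7, Itga9 and Sgms1. The member genes also had more probe sets on the array, with a median of 3 against 2 for genes with a bright probe set. These shares are descriptions with no test.

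The set depends on how the arrays are scaled. After quantile normalization 63 probe sets met the rule and 49 of them were among the 123, while median-centred arrays gave 142, with 114 shared.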

How the data were processed

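Each fraction had 3 samples, 1 array a sample. Per the labels' protocols, cDNA was made by Ovation Pico WTA amplification before biotin labelling. The deposited values, from 0.035 to 13.06, were taken as log2 signal from their range, and no source used here states how the authors summarised or normalized the probes. The array number limits the precision. The series design names a paired analysis of 3 pools. The labels number the replicates without naming a pool, so the pairing is assumed.

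Of 45037 probe sets left without 64 controls, 34945 had 1 symbol in GEO's platform annotation, 932 several and 9160 none, and 34741 matched RefSeq (GRCm38.p6) by Entrez identifier. The rule used the values as deposited. For the comparison across all probe sets, arrays were quantile normalized, the lower 40% by mean (level 2.73) removed, and limma 3.58.1 in R 4.3.3 fitted with replicate as a block and Benjamini-Hochberg adjustment. The fit was tested on simulated data with a set spread, which checks the code and not the power on these arrays. Deviations from group means correlated at 0.34, -0.19 and 0.31 between same-numbered arrays, but ALDH-negative replicate 1 correlated more with ALDH-positive replicate 2 (0.392), and ALDH-negative 2 with ALDH-positive 3 (0.166), so the numbers are not shown to pair the arrays.

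Members, gene lists and tests were chosen with earlier results of these data known, and function groups after the members. Named genes are those of the 20 largest differences, the 6 brightest, list members, members at most -1 in replicate 2, genes with 2 member probe sets, those with a discordant bright probe set, and threshold neighbours. Other genes, namely Insr, Foxo1, Nr5a1, Nr5a2, Krt8, Krt18, Ezr, Pik3r1, Pik3c2a, Itpr2, Echdc3, Mvd, Tm7sf2, Vldlr, Bhmt, Id2, Tcf4, Gm2a, Star, Timp1, Sfrp4, Parm1, Krt7 and Msln, were named after their values were seen. Alternatives covered scaling, thresholds, filter, block and replicates.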

Additional observations from a re-analysis of the deposited data

How the results depend on the processing

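The number of member probe sets, 123, moved with each threshold. It was 28 at a difference of at most -1.5, 266 at -0.8, 228 at a level of at least 4 and 40 at a level of at least 6. Quantile normalized arrays gave 63 (49 shared). With 1 replicate alone choosing it lay between 957 and 1377, and 9 members remained when replicate 2 had to meet the rule too. The 30 members lower in replicate 2 were 19 in median-centred and 44 in quantile normalized arrays, and 14 of the 26 at 5 or more on the ALDH-negative array of replicate 2. At a level of at least 4, 99 of 145 other probe sets were lower in both replicates. The mean of a gene's bright probe sets kept 75 of 112 genes, but 55 of these have 1 bright probe set and are kept by construction, and 20 of the other 57 were kept. Without those that are members, 52 of 81 other bright probe sets were lower in both, against 63 of 92. These 2 alternatives and the restriction to 26 members were chosen after seeing the data. Causes were not tested.

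Without the replicate block (paired fit dropped), limma called 0 probe sets at an adjusted p under 0.05, as it did with values as deposited, with median-centred arrays, without the filter and without replicate 2 or 3. The range on leaving out 1 replicate was 0 to 7, with 7 without replicate 1 (3 of them lower in ALDH-positive cells).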
